A study of Rattus norvegicus with 22 samples.

Results

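The genes examined here were 10 genes of cyclic AMP (cAMP) synthesis and breakdown, chosen by symbol: 4 adenylyl cyclases (Adcy3, Adcy5, Adcy6 and Adcy9), 4 phosphodiesterases (Pde1a, Pde3a, Pde4a and Pde4d) and 2 subunits of protein kinase A (Prkaca and Prkar1a). Values were at hand for 9 of the 10, among 17334 genes in the kidneys of 22 rats, and Adcy9 was not analysed here. These 9 genes all passed the filter on low counts and were tested among 12867 genes.

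All 22 rats were male heterozygous PKD/Mhm (Cy/+) animals with polycystic kidneys, told from non-cystic rats by abdominal palpation. This genotype, shared by the untreated rats, carries a missense mutation in Anks6, the gene of SamCystin. Their age was 8 months. There were 6 untreated rats, 6 given human adipose-derived stromal cells (ASC) intraperitoneally (i.p. ASC, here i.p. rats), 6 given the same cells intravenously (i.v. ASC, here i.v. rats) and 4 given the medium that these cells had conditioned (ASC-derived CM, here CM rats). Treatment was repeated monthly for 6 months with 2000000 cells or 500 µL of medium. The labels give no route for the medium, and the study's methods and its abstract name different ones. Total RNA of the whole left kidney was sequenced, so each value is an average over all cell types of the organ. The tissue label was borne out by kidney markers in all 22 rats, with Umod at 847 to 4445 TPM and Aqp2 at 406 to 1582 TPM.

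Cyclic AMP is made from ATP by adenylyl cyclases, which Gs-coupled receptors switch on and Gi-coupled receptors hold back. Phosphodiesterases break it down, and each of their families differs in its regulation: PDE1 enzymes respond to calcium and calmodulin, PDE3 enzymes are inhibited by cyclic GMP, and PDE4 enzymes are specific for cAMP. In the cell, cAMP frees the catalytic subunit of protein kinase A from its regulatory subunit. In polycystic kidney disease cAMP is known to drive fluid secretion and cell growth in cyst epithelium, and vasopressin acting on the collecting duct is a main source of it.

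The total count per rat ran from 12195682 to 14734772. At this depth a member was counted between 24 times (Pde3a, CM rat 11) and 4680 times (Adcy6) in a single rat. The rats also differed in a trend on transcript length, from -0.076 to 0.075. This trend is a slope on log2 relative length. It was fitted to a rat's log2 CPM after subtracting each gene's mean over all rats, so it compares rats with each other. Its mean was 0.027 ± 0.043 in the untreated, -0.011 ± 0.051 in the i.p. and -0.024 ± 0.046 in the i.v. group (SD, n = 6 each), and 0.012 ± 0.056 in CM rats (SD, n = 4). Urothelial markers (5 genes, summed TPM) reached 441 in i.v. rats, with a lowest value of 16.2, against 8.63 to 29.2 in untreated rats, and their part in the results was not tested.

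RefSeq gives 14 promoters for the members on the rat assembly GRCr8, each from 250 bases before to 50 bases after a transcript start: 5 for Pde4d, 4 for Pde4a and 1 each for Adcy5, Pde1a, Pde3a, Prkaca and Prkar1a. None was listed for Adcy3 and Adcy6, so these cyclases were not searched. The deposited values are per gene and do not separate the several starts of Pde4a and Pde4d. The promoters were searched on both strands for the cAMP response element, TGACGTCA, the site of the CREB transcription factor, and for its short form TGACG, which reads CGTCA on the other strand. A full element holds both short forms, which overlap. The full element was in 0 of 14 promoters, against 1.83% of the 33469 promoters in the table and 2.98% of the 10886 promoters of genes tested. At shares this small, 0 among 14 promoters says little about the members. The short form was in 5 of 14 (35.7%), against 21.2% and 30.1%. Of these 5 promoters 2 belong to Pde4a, 2 to Pde4d and 1 to Prkaca, so the share counts several starts of the same gene. A match of letters is a description, and binding was not measured. The promoter of Pde4d with most short forms and the first Pde4a promoter that holds one are printed because these genes had the most separated values, and that of Prkaca because its level was the steadiest. Each is read 5′ to 3′ on the strand of the gene, and the capitals mark the short form.
Pde4d, chr2:42592499-42592798, plus strand: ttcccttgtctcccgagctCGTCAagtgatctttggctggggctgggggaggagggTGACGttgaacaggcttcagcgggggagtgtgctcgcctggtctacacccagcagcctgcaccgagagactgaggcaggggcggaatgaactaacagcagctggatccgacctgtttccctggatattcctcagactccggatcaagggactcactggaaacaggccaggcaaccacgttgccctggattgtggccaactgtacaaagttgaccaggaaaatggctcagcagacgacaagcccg
Pde4a, chr8:27966737-27967036, plus strand: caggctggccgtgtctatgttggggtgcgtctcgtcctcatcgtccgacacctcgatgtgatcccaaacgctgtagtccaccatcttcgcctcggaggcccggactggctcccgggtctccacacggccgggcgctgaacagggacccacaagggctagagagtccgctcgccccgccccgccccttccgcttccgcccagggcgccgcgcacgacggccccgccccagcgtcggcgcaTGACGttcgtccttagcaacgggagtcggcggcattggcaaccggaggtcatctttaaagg
Prkaca, chr19:41083140-41083439, minus strand: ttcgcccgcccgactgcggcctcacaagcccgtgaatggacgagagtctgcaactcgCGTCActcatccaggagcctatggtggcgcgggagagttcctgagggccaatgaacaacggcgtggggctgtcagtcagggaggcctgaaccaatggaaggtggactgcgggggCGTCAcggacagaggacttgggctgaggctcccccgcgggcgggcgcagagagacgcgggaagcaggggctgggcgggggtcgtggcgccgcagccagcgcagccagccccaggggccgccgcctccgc

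On the TPM scale, which takes transcript length into account, Prkar1a was the most abundant member. This gene of the type I alpha regulatory subunit, which holds the kinase inactive, stood at 215 ± 28.9 TPM (SD, n = 22). Prkaca, the catalytic subunit alpha, followed at 64.1 ± 5.66 TPM and Adcy6, a cyclase inhibited by calcium, at 60.9 ± 12.2 TPM (SD, n = 22 each). Prkaca was the higher of this pair in 15 of 22 rats, a difference that did not pass (adjusted p = 0.0727, sign-flip permutation test, two-sided).

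Pde1a, which breaks down both cyclic GMP and cAMP, came next at 14.7 ± 3.76 TPM. Then came a group of 3 genes whose neighbours did not differ beyond their spread over rats. These were Pde4a at 6.46 ± 1.55 TPM, Pde4d at 6.10 ± 2.06 TPM and Adcy5, another calcium-inhibited cyclase, at 5.78 ± 1.63 TPM (SD, n = 22 each). The adjusted p of the same permutation test was 0.169 for Pde4a over Pde4d, in 14 of 22 rats, and 0.564 for Pde4d over Adcy5, in 12 of 22 rats. Adcy3, a cyclase first known from olfactory cilia, was lower, at 4.02 ± 1.24 TPM, and Pde3a was the lowest at 1.98 ± 1.13 TPM. The other 5 of 8 neighbour pairs each had an adjusted p of 1.6e-05, which comes from the smallest p that 100000 permutations can give, 1e-05. The higher gene of the pair was higher in at least 21 of 22 rats.

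**Figure D1:**
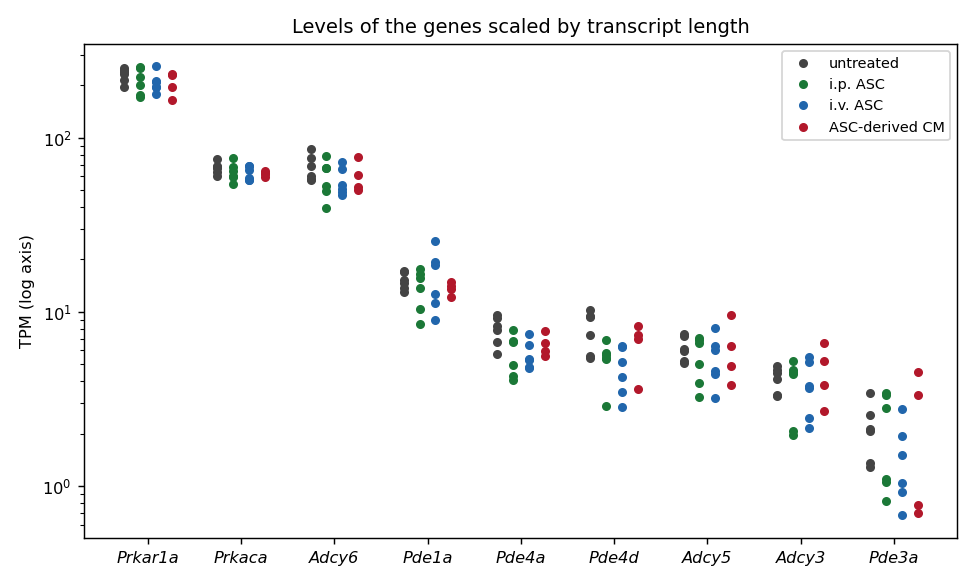
TPM of the 9 genes in every rat on a log axis, ordered by their mean over 22 rats, with 1 point per rat coloured by group. Prkar1a lies above all other members, Prkaca and Adcy6 lie side by side, and Pde4a, Pde4d and Adcy5 form a group of like level, with Pde3a lowest.

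The members took very different shares of their own enzyme families. Of the summed TPM of 9 adenylyl cyclase genes with values, Adcy6 held 65.3% ± 4.57 (SD, n = 22), with a range of 58.7% to 75.3%. Adcy9 is not part of this sum, so these are not shares of the whole family. Adcy5 held 6.10% ± 0.746 and Adcy3 4.24% ± 0.835, while Adcy4, which is not a member, held 13.7% ± 2.05. Prkaca made up 63.8% ± 3.83 of the catalytic subunits and Prkar1a 81.6% ± 2.40 of the regulatory subunits. Among 16 cAMP phosphodiesterases no gene had such a lead. Pde8a held 16.8%, Pde2a 12.8%, Pde1a 11.3%, Pde4a 4.86%, Pde4d 4.55% and Pde3a 1.40% of their summed TPM. Within the PDE4 family Pde4c held 37.7% ± 4.96, ahead of Pde4b, Pde4a and Pde4d at 22.1%, 20.9% and 19.3%.

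The genes also differed in how far they varied between rats of a group. Prkaca had a biological coefficient of variation of 0.089, above only 8.3% of the genes tested, and Prkar1a one of 0.103, above 19.6%. Adcy6 and Pde4a were near the middle, at 0.153 and 0.15. Pde3a had 0.491, above 95.4% of the genes tested. These spreads set how small a difference the groups could show for each gene.

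The study asked how treatment changed the kidney, here at the level of RNA against untreated rats. Pde4a and Pde4d, which code for cAMP-specific phosphodiesterases, were the members with the most separated values, both with lower values in rats given ASC by either route. None of the 9 members passed the threshold in any comparison (quasi-likelihood test of edgeR, p adjusted by Benjamini-Hochberg over 12867 genes), and neither did any other gene in the 3 comparisons with untreated rats, where the share of all genes called was 0%. At an unadjusted p under 0.05 there were 500, 1133 and 849 genes in i.p., i.v. and CM rats, and DESeq2 called 0, 28 and 5 genes and none of the members. At an unadjusted p under 0.05, 2 of 9 members, Pde4a and Pde4d, were lower in i.p. rats, against 2.14% of all genes in that direction (3.89% in either). The same 2 genes were lower in i.v. rats, against 5.0% of all genes (8.81% in either direction). In CM rats 0 of 9 members met this limit, against 3.75% lower (6.60% in either direction). The 3 comparisons share the same untreated rats and are not independent of each other.

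**Figure D2:**
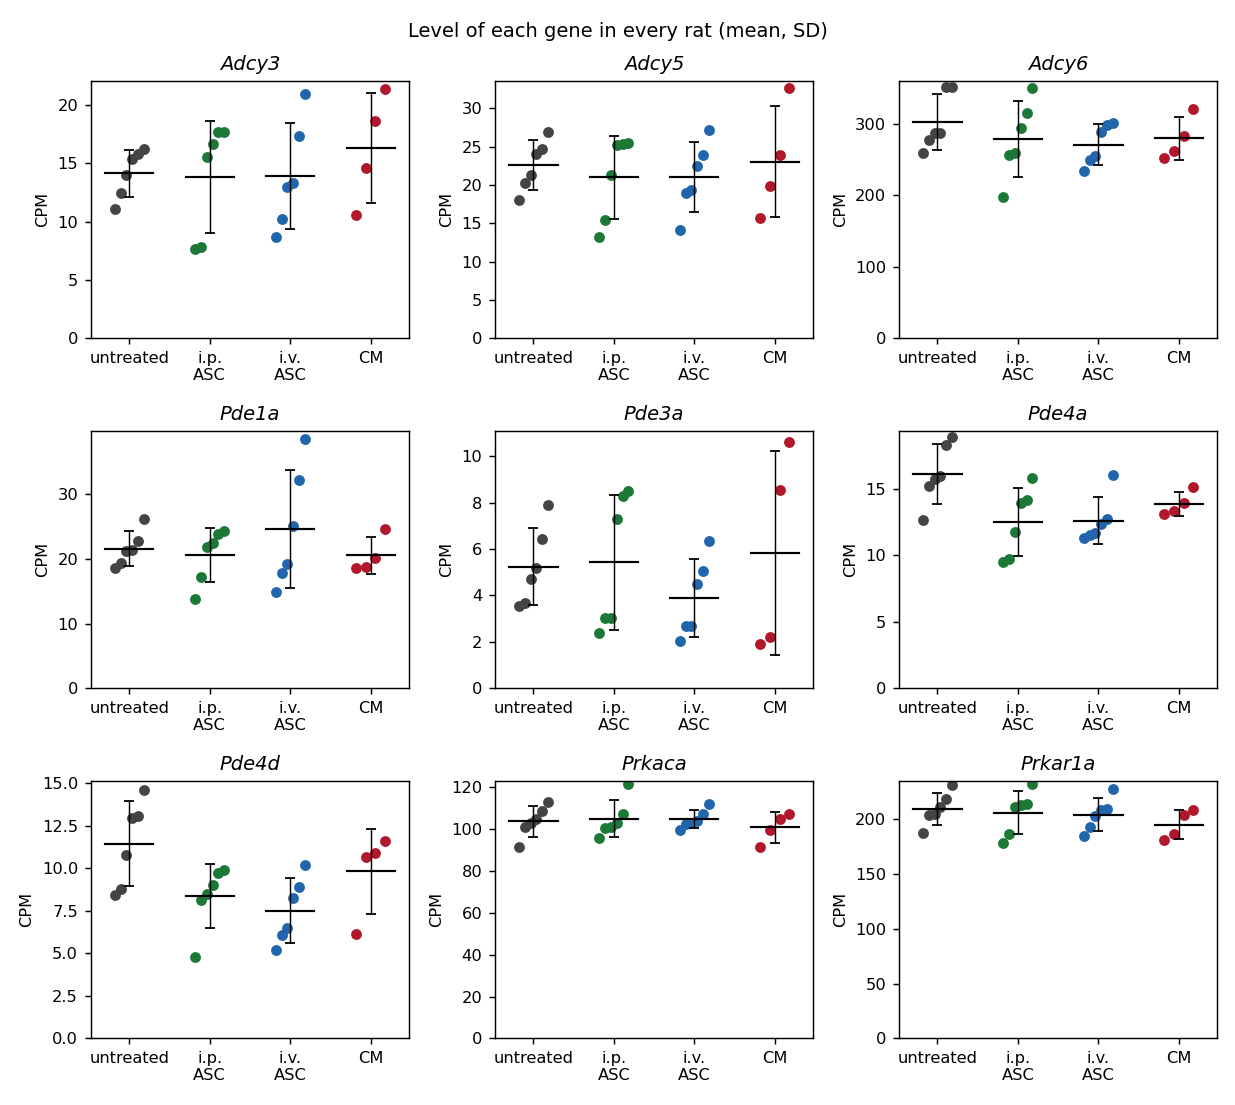
CPM of each of the 9 genes in every rat, with 1 point per rat and a line and bar for the group mean and SD (n = 6, and n = 4 for ASC-derived CM); each axis starts at 0. Pde4a and Pde4d lie lower in i.p. and i.v. rats than in untreated rats with overlap, while Prkaca and Prkar1a stay in a narrow band.

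Pde4d was at 8.45 CPM in the lowest, 11.9 CPM in the median and 14.6 CPM in the highest untreated rat. In i.p. rats these values were 4.78, 8.78 and 9.92 CPM, and in i.v. rats 5.22, 7.38 and 10.2 CPM. The 4 CM rats had 6.13, 10.7, 10.9 and 11.6 CPM. All rats of the 3 treated groups thus lay below the untreated median, and 2 of 6 i.p. rats, 4 of 6 i.v. rats and 1 of 4 CM rats lay below the lowest untreated rat. The log2 fold change was -0.46 ± 0.20 (SE) in i.p. rats, with an unadjusted p of 0.0341 and an adjusted p of 0.771 from edgeR. This unadjusted p stayed under 0.05 in 7 of 12 fits that each left out 1 untreated or i.p. rat. In i.v. rats the log2 fold change was -0.61 ± 0.20 (unadjusted p of 0.00682, adjusted p = 0.523, edgeR) and in CM rats -0.22 ± 0.22 (unadjusted p of 0.339, adjusted p = 0.884, edgeR). In CM rats the lowest value came from rat 2, and without it the log2 fold change was -0.06.

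Pde4a ran from 12.7 CPM through a median of 15.9 CPM to 18.9 CPM in untreated rats. It ran from 9.52 through 12.9 to 15.8 CPM in i.p. rats and from 11.3 through 12.01 to 16.04 CPM in i.v. rats. The 4 CM rats had 13.1, 13.3, 13.9 and 15.1 CPM. In i.p. and CM rats all values were below the untreated median, as were 5 of 6 i.v. rats, and 3 of 6 i.p. and 4 of 6 i.v. rats were below the lowest untreated rat, against 0 of 4 CM rats. The log2 fold change was -0.37 ± 0.13 (SE) in i.p. rats (unadjusted p of 0.00897, adjusted p = 0.771, edgeR), -0.36 ± 0.13 in i.v. rats (0.0112 and 0.523) and -0.22 ± 0.14 in CM rats (0.146 and 0.772). With 1 surrogate variable the i.v. value was -0.24, and the unadjusted p for i.v. rats was under 0.05 in 6 of 8 other settings.

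In no comparison did the groups separate without overlap for any member. All treated rats lay below all untreated rats for 0.124% of the genes tested in i.p. rats, 0.155% in i.v. rats and 0.987% in CM rats. The trend on transcript length moved with both PDE4 genes, with Pearson's r = 0.782 for Pde4d (rho = 0.785, adjusted p = 0.00018 for r and 0.00054 for rho over 9 genes, permutation test, n = 22) and r = 0.668 for Pde4a (rho = 0.656, adjusted p = 0.00128 and 0.00221). Without the 2 rats farthest from the median slope, r was 0.744 and 0.608. The slope was computed from the log2 CPM of all genes tested, so a gene can follow it through its transcript length alone. With this trend as a covariate, an alternative chosen after the data were seen, the log2 fold change of Pde4d was -0.23 in i.p. and -0.33 in i.v. rats (unadjusted p of 0.161 and 0.063, edgeR), and that of Pde4a was -0.27 and -0.21 (unadjusted p of 0.0234 and 0.0958), all 4 with an adjusted p of 1. The values kept their sign and were smaller. In whole kidney RNA, fewer cells that express a gene and less RNA per cell cannot be told apart.

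**Figure D3:**
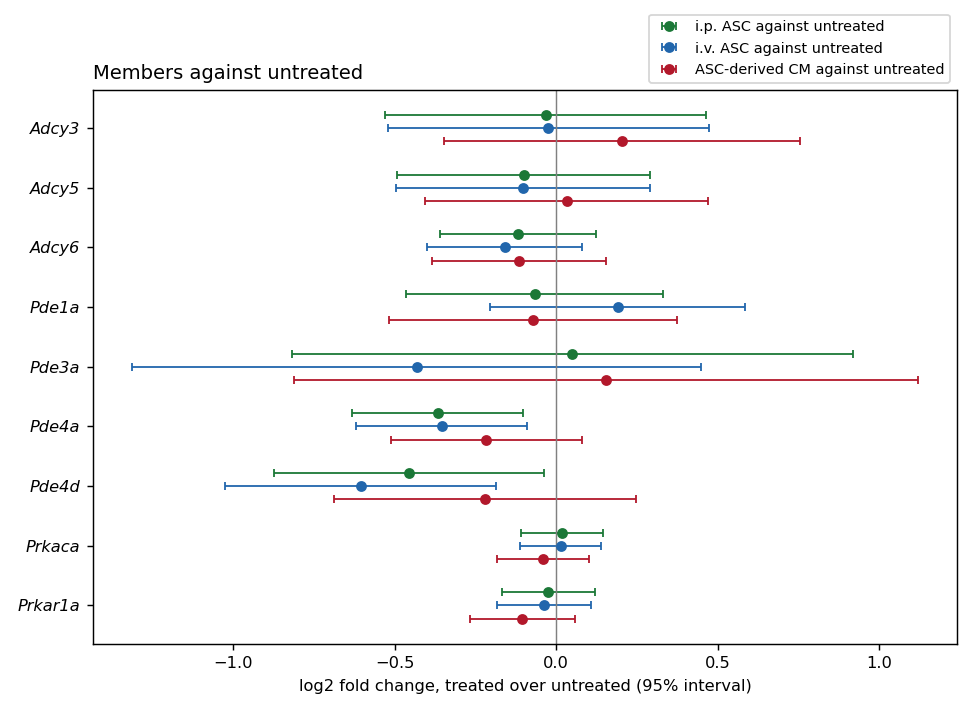
Log2 fold change of each of the 9 genes in treated over untreated rats with its 95% interval, for i.p., i.v. and CM rats (edgeR, untreated rats shared by all 3). The unadjusted intervals of Pde4a and Pde4d lie below 0 for both ASC groups, and those of the other members include 0.

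The cyclases differed little between the groups relative to their spread. Adcy6 was at 260 to 352 CPM (median 288) in untreated rats, 198 to 351 CPM (277) in i.p. and 234 to 301 CPM (272) in i.v. rats. The 4 CM rats had 252, 262, 284 and 321 CPM. The log2 fold changes were -0.12 ± 0.12, -0.16 ± 0.12 and -0.12 ± 0.13 (SE), with 95% intervals from -0.40 to 0.16 over the 3 comparisons. For Adcy5 they were -0.10 ± 0.19, -0.10 ± 0.19 and 0.03 ± 0.21, and for Adcy3 -0.03 ± 0.24, -0.03 ± 0.24 and 0.21 ± 0.27, in the same order. The adjusted p-values of the cyclases were at least 0.57 (edgeR).

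Adcy3 had a wide range within the treated groups. In i.p. rats its lowest value was 7.62 CPM and its median 16.1 CPM, while untreated rats were all between 11.1 and 16.2 CPM. Accordingly 2 of 6 i.p. rats were below the lowest and 3 of 6 above the highest untreated rat. In i.v. rats the values ran from 8.65 to 20.97 CPM, and the CM rats had 10.6, 14.6, 18.7 and 21.4 CPM. Adcy5 ran from 18.01 to 26.9 CPM in untreated, 13.3 to 25.4 CPM in i.p. and 14.1 to 27.2 CPM in i.v. rats, and the CM rats had 15.7, 19.8, 23.9 and 32.6 CPM. All 4 groups overlapped for each of these cyclases.

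The other phosphodiesterases among the members had intervals that included 0 in all 3 comparisons. Pde1a was at 18.6 to 26.2 CPM (median 21.3) in untreated, 13.8 to 24.4 CPM (22.2) in i.p. and 14.9 to 38.5 CPM (22.1) in i.v. rats, with 18.6, 18.8, 20.1 and 24.7 CPM in CM rats. Its log2 fold changes were -0.07 ± 0.19, 0.19 ± 0.19 and -0.07 ± 0.21 (SE). Pde3a was at 3.57 to 7.90 CPM in untreated, 2.39 to 8.51 CPM in i.p. and 2.03 to 6.37 CPM in i.v. rats, and at 1.93, 2.23, 8.54 and 10.6 CPM in CM rats. Its log2 fold changes were 0.05 ± 0.42, -0.43 ± 0.42 and 0.16 ± 0.46. The 95% interval in i.v. rats ran from -1.31 to 0.45 and was the widest of the members in that comparison. The i.v. value was 0.022 with 1 surrogate variable and 0.258 with the length trend as a covariate, and the CM value ran from -0.309 to 0.442 when a rat was left out.

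The protein kinase A genes were the steadiest. Prkaca had medians of 104, 102, 103 and 102 CPM in untreated, i.p., i.v. and CM rats, within 91.3 to 121 CPM over all rats. Its log2 fold changes of 0.02 ± 0.06, 0.01 ± 0.06 and -0.04 ± 0.07 (SE) had 95% intervals from -0.18 to 0.14 over the 3 comparisons, the narrowest of the members. Prkar1a had medians of 208, 212, 205 and 195 CPM within 178 to 232 CPM, with log2 fold changes of -0.02 ± 0.07, -0.04 ± 0.07 and -0.11 ± 0.08. The ratio of Prkar1a to Prkaca TPM was 3.43 ± 0.267 in untreated rats (SD, n = 6), 3.33 ± 0.285 in i.p. rats, 3.31 ± 0.251 in i.v. rats (n = 6 each) and 3.30 ± 0.450 in CM rats (SD, n = 4).

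Across the 9 members the median log2 fold change was -0.07 in i.p., -0.10 in i.v. and -0.07 in CM rats, beside -0.01, -0.01 and -0.00 over all genes tested, with 7, 7 and 6 of 9 members below 0. Any difference among the 4 groups was called for 0 of 9 members and for 0.0855% of all genes, or 11 genes, a count that was 45 with DESeq2, 0 under 3 other settings and 0 to 18 when a rat was left out (0 without i.v. rat 9, 5 without i.v. rat 3 or 13, 18 without i.v. rat 14). At an unadjusted p under 0.05 it was met by Pde4a (p of 0.0286) and Pde4d (p of 0.0341), against 4.11% of all genes, and both had an adjusted p of 0.912 (edgeR). Between the i.p. and the i.v. route, 0 of 9 members and 0% of all genes were called (edgeR), with 281 genes at an unadjusted p under 0.05 and 24 genes called by DESeq2.

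The other genes of cAMP breakdown had values below 0 in most cases. Of 12 further cAMP phosphodiesterases, all tested, 0 passed the threshold. Below 0 were 11 in i.p., 11 in i.v. and 10 in CM rats, beside 6917, 6751 and 6543 of all 12867 genes, with median log2 fold changes of -0.22, -0.29 and -0.21. Lower at an unadjusted p under 0.05 were 1, 2 and 2 of 12, beside 2.14%, 5.0% and 3.75% of all genes. These were Pde10a in i.p. rats (-0.68 ± 0.28 SE, p of 0.0246), Pde7a (-0.39 ± 0.14, p of 0.00842) and Pde8a (-0.34 ± 0.13, p of 0.0209) in i.v. rats, and Pde1c (-0.45 ± 0.17, p of 0.0167) and Pde10a (-0.77 ± 0.32, p of 0.0258) in CM rats, each with an adjusted p of at least 0.523 (edgeR). Pde1c, a calcium-activated enzyme of the PDE1 family, was between 13.4 and 16.7 CPM in the 4 CM rats and between 18.3 and 24.1 CPM in untreated rats, without overlap. With only 4 CM rats, such a separation below untreated rats was found for 0.987% of all genes tested. The most abundant gene of this list, Pde8a (22.4 TPM), was followed by Pde2a (17.4 TPM), an enzyme stimulated by cyclic GMP.

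**Figure D4:**
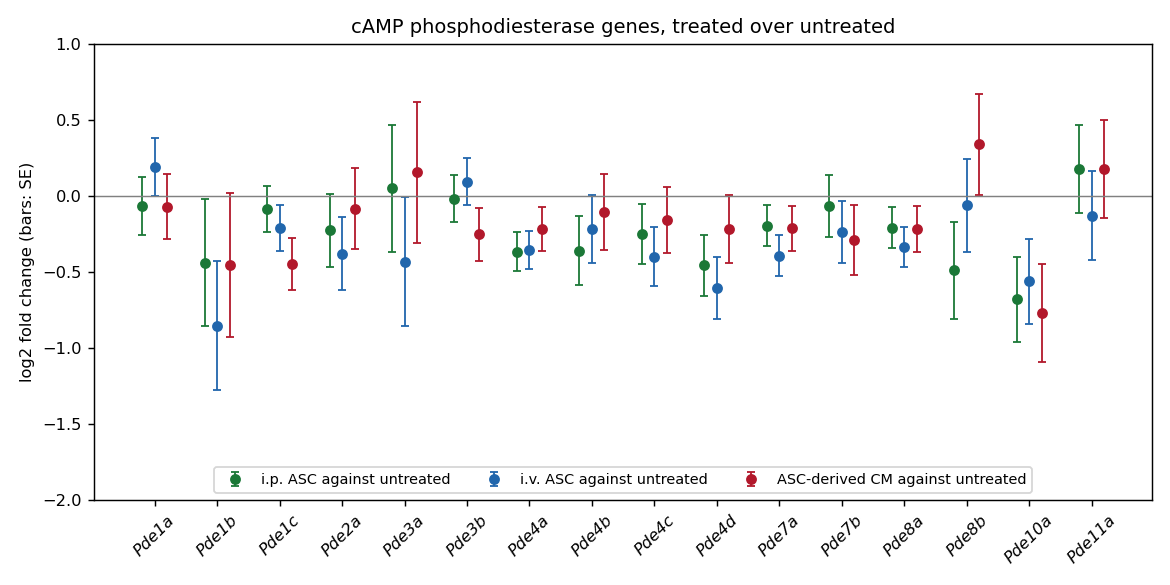
Log2 fold change with its SE for 16 cAMP phosphodiesterase genes in treated over untreated rats. Most values lie below 0 in all 3 comparisons, among them Pde4a, Pde4d, Pde7a, Pde8a and Pde10a, and none passed the threshold.

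Summed over the 4 PDE4 genes, the level was 38.1 ± 8.98 TPM in untreated rats (SD, n = 6), 28.2 ± 6.75 TPM in i.p. rats, 26.9 ± 6.57 TPM in i.v. rats (n = 6 each) and 32.2 ± 5.51 TPM in CM rats (SD, n = 4). The sums of single rats overlapped between all groups, with 27.7 to 48.8 TPM in untreated and 18.9 to 36.1 TPM in i.v. rats. The adenylyl cyclases, without Adcy9, summed to 105 ± 18.5, 89.9 ± 22.4, 85.6 ± 17.7 and 95.8 ± 26.1 TPM in the same order. The ratio of summed phosphodiesterase to summed cyclase TPM was 1.48 ± 0.0549, 1.43 ± 0.147, 1.40 ± 0.0699 and 1.37 ± 0.131, and the values of single rats overlapped. The deposited TPM values summed to 959754 to 968550 per rat and were not scaled by size factors, and these sums are a description.

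Upstream of the cyclases, Gnas, the stimulating G protein subunit, was at 828 ± 57.5 TPM and the inhibiting Gnai2 at 399 ± 61.7 TPM (SD, n = 22). None of 7 G protein alpha subunits had an unadjusted p under 0.05 in a comparison with untreated rats. The best expressed Gs-coupled receptors were Pth1r, the parathyroid hormone receptor, at 182 TPM and Avpr2, the vasopressin receptor of the collecting duct, at 68.8 TPM. Of 14 such receptors 10, 10 and 11 were below 0 in i.p., i.v. and CM rats, with medians of -0.10, -0.33 and -0.26. Over all 12867 genes 6917, 6751 and 6543 were below 0. Lower at an unadjusted p under 0.05 were 1, 3 and 3 of 14 receptors, beside 2.14%, 5.0% and 3.75% of all genes (edgeR). Adrb1, the beta-1 adrenergic receptor, was the only one with an unadjusted p under 0.05 in each of the 3 comparisons, with log2 fold changes of -0.31 ± 0.14, -0.56 ± 0.14 and -0.36 ± 0.16 (SE) and unadjusted p of 0.0401, 0.000658 and 0.0319 (adjusted p = 0.771, 0.341 and 0.711, edgeR). Calcr, the calcitonin receptor, and Sctr, the secretin receptor, met this limit in i.v. rats (-0.32 and -0.41) and in CM rats (-0.53 and -0.51). Of the Gi-coupled receptors, led by Ptger3 (51.8 TPM) and Adra2b (29.8 TPM), 0 of 6 did in any of the 3 comparisons.

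Other lists showed single genes. Of 5 further cyclases tested, with Adcy4 at 13.03 TPM and Adcy7 at 5.54 TPM the highest, Adcy1 was at -0.86 ± 0.33 in i.v. rats (unadjusted p of 0.0174, adjusted p = 0.523, edgeR). Among 7 further kinase A subunits and inhibitors, with Pkig at 142 TPM and Prkacb at 36.8 TPM the highest, Pkia, a peptide inhibitor of the kinase, was at -0.53 ± 0.16 in i.v. rats (unadjusted p of 0.00262, adjusted p = 0.523, edgeR). None of 9 A-kinase anchoring proteins tested met the unadjusted limit, with Akap8 at 58.1 TPM and Akap1 at 29.1 TPM the highest.

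Downstream, 8 genes of cAMP effectors and CREB partners were tested, led by Aqp2, the vasopressin-regulated water channel (810 TPM), and Crtc2, a CREB coactivator (49.98 TPM). Aqp2 was at 0.54 ± 0.24 in i.v. rats (unadjusted p of 0.0358) and Atf1, a CREB relative, at 0.16 ± 0.07 and 0.14 ± 0.07 in i.p. and i.v. rats (unadjusted p of 0.0262 and 0.0482), with adjusted p of 0.523 to 0.771 (edgeR). Of 9 CREB target genes, 7, 8 and 8 were below 0, with medians of -0.14, -0.27 and -0.30. Dusp1, a phosphatase of MAP kinases (54.2 TPM), and Rgs2, a regulator of G protein signalling (37.1 TPM), were the most abundant. Only Ppargc1a, a coactivator of mitochondrial genes, met the unadjusted limit, at -0.49 ± 0.21 in i.v. rats (unadjusted p of 0.0308, adjusted p = 0.523, edgeR). In all, 0 of 77 pathway genes passed the threshold in any of the 3 comparisons, and 52, 61 and 51 of them were below 0, beside 6917, 6751 and 6543 of 12867 genes.

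Some members varied together between kidneys. Of 36 pairs of members, 12 passed after adjustment over the pairs (Pearson's r of log2 CPM, two-sided permutation test, n = 22), all with positive r and all among Adcy3, Adcy5, Adcy6, Pde3a, Pde4a and Prkar1a, and 11 passed with the group means removed. On log2(TPM + 1), 29 of 36 pairs passed. The share of pairs that would pass among all genes tested was not examined. These counts therefore do not set the members apart from other genes. The closest were Adcy6 with Pde4a (r = 0.772, rho = 0.704, adjusted p = 0.00096 and 0.00418), Adcy3 with Adcy5 (r = 0.771, rho = 0.687, adjusted p = 0.00096 and 0.00418) and Adcy5 with Pde3a (r = 0.742, rho = 0.740, adjusted p = 0.00096 and 0.00306). Without the 2 rats farthest from the median on the x axis, r was 0.646, 0.652 and 0.727. Pde4a and Pde4d had r = 0.438 (rho = 0.429, adjusted p = 0.0876 and 0.109), and r was 0.15 with group means removed. By Pearson's r, Pde1a, Pde4d and Prkaca passed with no other member, with a smallest adjusted p of 0.0876, 0.0603 and 0.0876 (permutation test). By rho, Pde1a passed with Adcy6 (r = 0.442, rho = 0.542, adjusted p = 0.0876 and 0.0365, permutation test).

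Some of these genes also moved with the trend on transcript length. Besides the PDE4 genes, r with its slope was 0.777 for Pde3a, 0.710 for Adcy6, 0.692 for Adcy5 and 0.627 for Prkar1a (rho = 0.741, 0.702, 0.684 and 0.615, adjusted p for r = 0.00018, 0.00054, 0.000787 and 0.00294 over 9 genes, permutation test, n = 22). For Adcy3, Pde1a and Prkaca it did not pass, with r = 0.414, 0.109 and -0.253 (adjusted p = 0.0715, 0.632 and 0.294). Because the slope comes from the same values, following it is not a trait of these genes alone. The share of all genes that follow it was not examined. The part of this trend in the correlations between members was not tested.

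The members were also set against 13 lists of cell type markers, each as its mean log2 CPM per rat. Of 117 pairs 27 passed after adjustment (permutation test of Pearson's r, n = 22), 19 with positive r, and 20 passed with group means removed. On log2(TPM + 1), 42 of 117 passed. How often other genes pass with these lists was not examined, so the counts are a description. Adcy3 followed the fibroblast markers Col1a1, Col3a1, Pdgfra and Dcn (r = 0.893, rho = 0.846, adjusted p = 0.00039 and 0.000585) and the leukocyte markers Ptprc, Cd68, Csf1r and Cd3e (r = 0.786, rho = 0.799, adjusted p = 0.000585 and 0.000877). Pde3a followed the endothelial markers Pecam1, Cdh5, Kdr and Emcn (r = 0.898, rho = 0.845, adjusted p = 0.00039 and 0.00078). With the 2 farthest rats left out, r of these 3 pairs was 0.843, 0.803 and 0.889.

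Prkar1a had r = 0.764 with the endothelial list (rho = 0.718, adjusted p = 0.00117 and 0.00819). This list was also passed by Adcy5 (r = 0.717, rho = 0.642, adjusted p = 0.00366 and 0.0135, permutation test). The same held for Adcy3 (r = 0.639, rho = 0.606, adjusted p = 0.0121 and 0.0256, permutation test). Pde1a and Prkaca had positive r with the intercalated cell list, 0.575 (rho = 0.654, adjusted p = 0.0309 and 0.012) and 0.598 (rho = 0.466, adjusted p = 0.0225 and 0.0855). Pde4a had r = 0.554 with the endothelial list (rho = 0.563, adjusted p = 0.0334 and 0.0327) and -0.700 with the adipocyte list (rho = -0.693, adjusted p = 0.00366 and 0.00897), of which 2 of 3 genes were tested and Plin1 had a median of 0.106 TPM. The 2 tested genes differed in spread over the rats. Adipoq ran from 17.3 to 39.6 TPM and Cidec from 3.24 to 65.8 TPM, so the list varied mostly with Cidec. The negative r with the adipocyte list was not particular to Pde4a. It was -0.634 for Adcy3, -0.593 for Adcy5, -0.556 for Adcy6, -0.680 for Pde3a and -0.595 for Prkar1a. All of these passed (adjusted p = 0.013, 0.0242, 0.0334, 0.00948 and 0.0252 in this order, permutation test). Pde4d had r = -0.610 with the principal cell markers Aqp2, Aqp3 and Scnn1g (rho = -0.669, adjusted p = 0.0198 and 0.012). With group means removed, the adjusted permutation p of Pearson's r was 0.056 for Pde4d with the principal cell list, 0.0744 for Pde4a with the endothelial list and 0.0561 for Prkaca with the intercalated cell list, none past the threshold. The distal convoluted tubule list rests on 1 tested gene, Slc12a3, and the urothelial values of i.v. rats fell into separate groups, so that no r is given for them here.

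**Figure D5:**
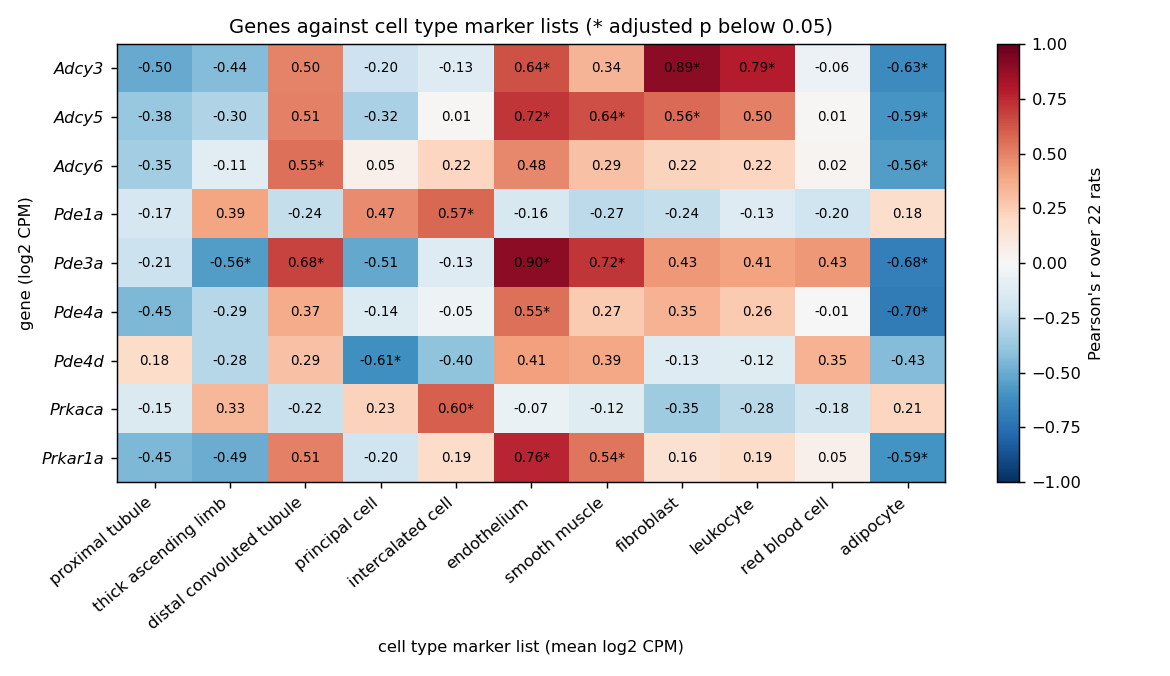
Pearson's r over 22 rats between each of the 9 genes and the mean log2 CPM of 11 cell type marker lists, with an asterisk where the adjusted p of the permutation test was below the threshold. Adcy3 has its highest r with the fibroblast list (0.893) and Pde3a with the endothelial list (0.898), while Pde1a and Prkaca pass only with the intercalated cell list. The distal convoluted tubule list is 1 tested gene, Slc12a3.

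The levels of these lists in the groups were not tested. The summed TPM of the 4 endothelial markers was 161 to 226 in untreated, 102 to 230 in i.p., 66.4 to 224 in i.v. and 89.2 to 230 in CM rats. The principal cell markers summed to 736 to 1487 in untreated, 536 to 1141 in i.p., 954 to 2111 in i.v. and 743 to 1033 in CM rats. The adipocyte list had a mean log2 CPM of 3.81 ± 0.63 in untreated, 4.51 ± 0.70 in i.p. and 4.73 ± 0.65 in i.v. rats (SD, n = 6 each) and 4.53 ± 0.82 in CM rats (SD, n = 4), with Cidec at 10.7, 30.9, 33.3 and 37.2 CPM and Adipoq at 23.03, 25.03, 30.1 and 20.6 CPM in the same order. No marker of these 3 lists was at 0 in all rats. Their part in the lower Pde4a and Pde4d values was not tested.

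Among all genes tested, those most like a member over the 22 rats by Spearman's rho of log2 CPM were as follows, as a description without a test. Adcy3 was closest to Dpt (0.955) and Col6a2 (0.953), genes of the extracellular matrix, and Pde3a to Epas1 (0.941), a hypoxia-regulated transcription factor, and Entpd1 (0.94), an enzyme that breaks down extracellular ATP. Adcy6 was closest to Tbc1d24 (0.919) and Ampd3 (0.911), and Adcy5 to Fxyd1 (0.897) and Gba2 (0.863). Pde4a was closest to Afap1l1 (0.893) and Dnm1 (0.859), and Pde4d to Nhs (0.871) and Nav2 (0.86). Prkar1a was closest to Cyyr1 (0.872) and Rbms2 (0.852). The highest rho was lower for Pde1a, with Oxr1 and Kcnip4 (0.8 each), and for Prkaca, with Anxa11 (0.771) and Stx12 (0.756).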

How the data were processed

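Kidney RNA of 22 male rats was analysed. Groups and rat numbers came from the labels, and since rats of different groups are different animals with their own numbers, no comparison was paired. The members and all lists of pathway and marker genes were chosen with earlier results of these data known. The authors sequenced total RNA on the BGISEQ-500 platform, and the submitters' processing notes name Trim Galore 0.6.4, kallisto 0.4.6 and the rat build rn6. The study's methods name a human transcript package beside DESeq2, and the deposited identifiers are rat Entrez numbers. The authors deposited 2 values per gene and rat without pooling: an estimated count without normalization, and a TPM value, which is scaled by transcript length and total.

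Of the counts 14.1% were not whole, and they were rounded. Symbols came from the RefSeq table of GRCr8 (names only), which matched 17179 of 17334 identifiers. Total counts of 12195682 to 14734772 per rat set the counting error. Where reads fit close paralogs, how they were split is not stated. Groups were compared in 1 quasi-likelihood fit over all 4 groups (edgeR 4.0.16 under R 4.3.3), with TMM normalization, after filterByExpr had kept 12867 genes. Adjustment was by Benjamini-Hochberg at a threshold of 0.05. CPM is the count scaled by the TMM library size, and log2 CPM used a prior count of 2. The fit was tested on simulated counts. Order and correlations were tested with 100000 permutations. Relative transcript length was read from count and TPM together, using rats with 5 counts or more.

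Named in the text were the 10 members, in each pathway list the 2 genes of highest mean TPM and at most 3 with the smallest unadjusted p under 0.05 in a comparison with untreated rats, and for each member the 2 most alike genes. Adjusted p-values of group comparisons are over all genes tested. Those of the order are over 8 neighbour pairs. Those of correlations are over 36 pairs of members, 117 pairs with marker lists, or 9 members for the length trend. Labels do not name litters, so p-values measure the spread between these rats. The alternatives tried were to omit each rat, to fit only the 2 groups compared, to add 1 surrogate variable (sva 3.50.0), to use DESeq2 1.42.0 or its RLE factors, to drop the filter (15275 genes) or raise it to 10 counts in all rats (11721 genes), and to run limma 3.58.1 on log2(TPM + 1). For correlations, a prior count of 0.5 or TPM values, and for the order of levels a pseudocount of 0.1, CPM or untreated rats alone, were tried. A trend on transcript length as a covariate was added after the data were seen. Adcy9, Rapgef4, Crtc3 and Trpm6 were not analysed here. Of the cell type markers, 1 list counted among the pairs is not reported here.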

Additional observations from a re-analysis of the deposited data

Results flagged for a closer look

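Of 36 sets of log2 CPM values, 1 for each member and group, 3 held a rat whose gap to its nearest neighbour, relative to the range of the group, was above Dixon's critical value (0.829 for 4 rats, 0.625 for 6). Chance flags about 1 in 20 such sets. All 3 belonged to the PDE4 genes. For Pde4d, ASC-derived CM rat 2 was at 2.65 on the log2 CPM scale (6.13 CPM), below the 3.44 to 3.56 of the other rats of its group, and i.p. ASC rat 6 was at 2.30 (4.78 CPM), below 3.05 to 3.33. For Pde4a, i.v. ASC rat 13 was at 4.02 (16.04 CPM), above 3.52 to 3.69. The slope of the trend on transcript length was -0.0578 in rat 2, -0.0658 in rat 6 and -0.0263 in rat 13, and its part was not tested.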

How the results depend on the processing

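No member was called under any alternative. The number of genes called in the i.v. comparison was 28 with DESeq2 and 0 to 14 when a rat was left out (11 without i.v. ASC rat 8, 14 without rat 14). In the CM comparison it was 5 with DESeq2 and 1 with only the 2 groups compared. Between the routes it was 24 with DESeq2, 4 with 1 surrogate variable and 0 to 13 when a rat was left out (13 without i.v. ASC rat 8 or rat 14). Among the 4 groups it was 11, and 45 with DESeq2, 4 with 1 surrogate variable, 0 with at least 10 counts in every rat, on log2(TPM + 1) or with the length trend as a covariate, and 0 to 18 when a rat was left out (0 without i.v. ASC rat 9, 5 without rat 3 or rat 13, 18 without rat 14). The causes were not tested.

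The signs of some log2 fold changes turned, among them that of Pde3a in i.v. rats, which was -0.43 in the edgeR fit of all rats without a covariate. With 1 surrogate variable they were 0.18 (Adcy3), 0.038 (Adcy5) and 0.03 (Prkar1a) in i.p. rats, and 0.24 (Adcy3), 0.091 (Adcy5), 0.022 (Pde3a), -0.002 (Prkaca) and 0.025 (Prkar1a) in i.v. rats. With the length trend as a covariate they were 0.069 (Adcy3), 0.055 (Adcy5) and 0.036 (Prkar1a) in i.p. rats, and 0.14 (Adcy3), 0.13 (Adcy5), 0.26 (Pde3a), -0.009 (Prkaca) and 0.047 (Prkar1a) in i.v. rats. On log2(TPM + 1), where the median of all genes was -0.10, -0.12 and -0.07 in the 3 comparisons, they were -0.079 (Pde3a) and -0.074 (Prkaca) in i.p. rats, -0.095 (Prkaca) in i.v. rats, and -0.058 (Adcy5) and -0.065 (Pde3a) in CM rats. Leaving out a rat gave -0.115 to 0.093 (Adcy3), -0.162 to 0.005 (Adcy5), -0.116 to 0.026 (Pde1a), -0.123 to 0.203 (Pde3a), -0.021 to 0.043 (Prkaca) and -0.055 to 0.013 (Prkar1a) in i.p. rats. It gave -0.176 to 0.08 (Adcy3) and -0.02 to 0.04 (Prkaca) in i.v. rats, and -0.184 to 0.17 (Adcy5), -0.309 to 0.442 (Pde3a) and -0.079 to 0.004 (Prkaca) in CM rats. Pde4a and Pde4d stayed below 0 throughout, while the unadjusted p for i.v. rats was under 0.05 in 6 and 7 of 8 other settings. Leaving out a rat gave -0.53 to -0.34 and -0.71 to -0.52 for Pde4d in i.p. and in i.v. rats, and -0.44 to -0.30 and -0.43 to -0.30 for Pde4a.

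By mean CPM, 7 members took another place in the order of levels than by TPM. With untreated rats alone 4 did. There 0 neighbour pairs passed. With 6 rats, the smallest p of the sign-flip test is large. More pairs than passed in all rats would have to reach it for any to pass. No conclusion about the order in untreated rats is drawn from this count. On log2(TPM + 1), 29 of 36 pairs of members and 42 of 117 pairs with marker lists passed, in place of 12 and 27. No paired analysis was possible because the groups share no rat numbers. Depth limits Pde3a most.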
